A study of Mus musculus with 20 samples.

Results

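Soleus of wild-type (WT) mice was compared between the ages of 200 days (old mice) and 80 days (young mice), with 5 arrays at each age, 10 of the 20 arrays of the series. The genes described are the 22180 that had a probe set with a single gene symbol on the GeneChip Mouse Gene 2.0 ST array, and each gene was read by its brightest such probe set. Every deposited value is a log2 signal, so a difference of 1 between ages is a 2-fold difference. The mice were labelled wild type, with the 129S2/SvPasCrl strain background. According to the methods they were males on a chow diet. The labels give no treatment and no hour of harvest, and the methods give the ages only as 2 ranges in months. The other 10 arrays came from mice of the same background and ages with the p.H222P change on both copies of *Lmna* (H222P), which encodes lamins A and C of the nuclear envelope. They enter here as other animals of the same ages, in the test of whether the age difference differs between genotypes, and in the joint fit of all arrays. Every array carries its own number in its label, taken here as the number of a mouse. The p-values measure the spread between these arrays, which may in part be technical.

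The soleus is a postural hind-limb muscle of slow, oxidative fibers with some faster fibers among them. At both ages a mouse is a fertile adult. By the earlier age most limb growth is over, and the muscle then passes into a long period of maintenance in which collagen synthesis slows, the motor nerve keeps its myelin, and resident fibroblasts and macrophages stay in place between the fibers. Whether such a period leaves a mark on the RNA of the whole muscle is the question this comparison addresses. RNA of a whole muscle mixes all its cells, so fewer cells of a type and less RNA per cell cannot be told apart.

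Marker genes matched the label of a male skeletal muscle. The 10 myofiber markers had mean signals of 11.60 to 11.63 in young and 11.56 to 11.63 in old arrays, near the top of the scale. *Kdm5d*, a Y-linked gene, read 5.92 ± 0.17 in young and 6.01 ± 0.25 in old arrays (mean ± SD, n = 5 each), while *Xist*, the RNA of the silenced X chromosome, read 2.20 ± 0.11 and 2.26 ± 0.22. Markers of lymphocytes (9 of 11 measured), mast cells (6 of 8) and neutrophils (8 of 8) mostly had mean signals under 4, and of 10 markers of red blood cells only 1 had a probe set of its own. The 10 WT arrays were alike, with correlations of 0.978 to 0.987 within an age and 0.976 to 0.987 between ages. Old WT mouse 108 stood apart on the first principal component of the 10 arrays (18.9% of the variance), at 59.6 against −19.1 to −0.82 in the other 9. On the second component (14.3%) young arrays ran from −22.1 to −1.59 and old arrays from −2.24 to 39.4.

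No gene passed the test for age. In limma, with Benjamini-Hochberg adjustment across the 35916 probe sets, 0 probe sets (0%) had an adjusted p under 0.05, and 2868 (7.99%) had an unadjusted p under 0.05. The lowest adjusted p was 0.0665. When p was adjusted over the 22180 genes alone, 15 genes (0.0676%) passed, 9 higher (0.0406%) and 6 lower (0.0271%) in old mice. Named in order of difference they were *Cyfip2*, *Ostn*, *Car2*, *Amy1*, *Nin*, *Ctsll3*, *2310030G06Rik*, *Trim13* and *Gpc4* on the higher side, and *Adamts8*, *Ly6c1*, *Mir188*, *Kera*, *Unc13d* and *Olfr784* on the lower side, and *Amy1*, *2310030G06Rik*, *Trim13*, *Gpc4*, *Mir188* and *Olfr784* were named after their values were seen. Without old mouse 107, 10 probe sets passed the adjustment over all probe sets, among them those of *Adamts8*, *Car2*, *Cyfip2*, *Ly6c1*, *Nin* and *Prss27*. All values of p below come from the limma fit, and "adjusted" means over all probe sets unless stated.

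The differences were small. The median difference over all genes was 0.02, and 95% of genes lay between −0.30 and 0.34. The 95% interval of the difference lay within 2-fold in 99.2% of genes and within 1.5-fold in 90.4%. At an unadjusted p under 0.05, 1212 genes (5.46%) were higher and 642 (2.89%) lower in old mice. In 323 genes (1.46%) all 5 old arrays lay above all 5 young arrays, and in 118 (0.532%) all lay below. A difference of 1.5-fold or more was seen in 63 genes on the higher side (0.284%) and 33 on the lower (0.149%), and of 2-fold in 4 (0.018%) and 4 (0.018%). The share of higher genes among those without overlap was 73.2%, but 84.9% after each array was re-centred on its median and 62.7% after quantile normalization, so it rests on the scaling. At an unadjusted p under 0.05 the share was 65.4%, and 76.8% after re-centring and 57.7% after quantile normalization.

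**Figure D1:**
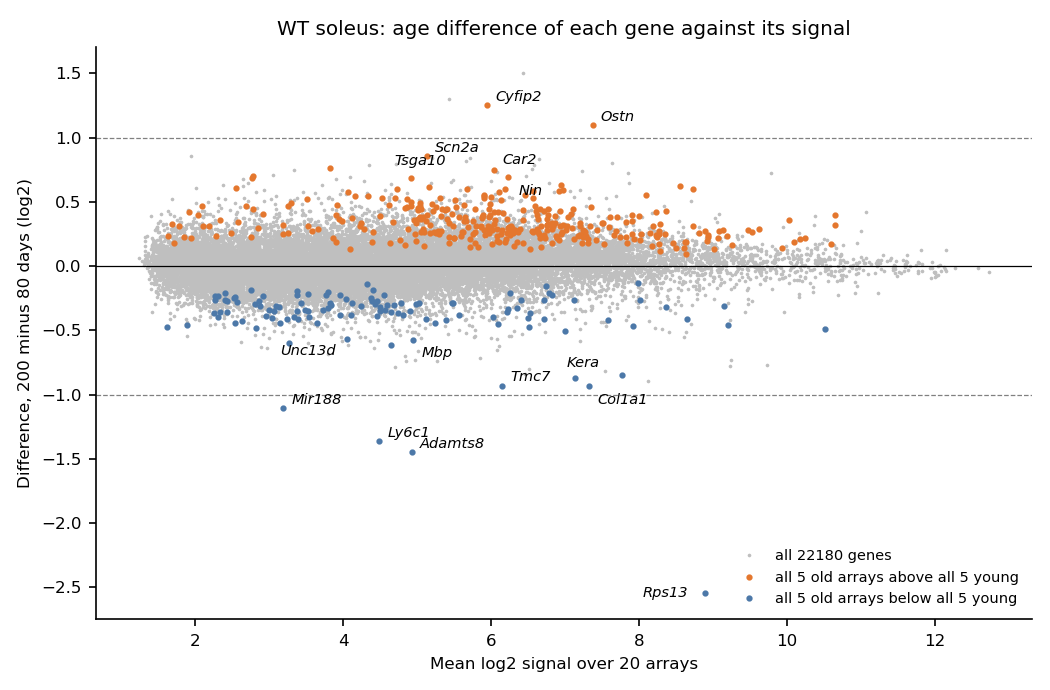
Difference between 200 and 80 days (log2, vertical) against the mean log2 signal over 20 arrays (horizontal) for each of 22180 genes in WT soleus. Dashed lines mark a 2-fold difference, which 8 genes reached, and colored points are the 323 and 118 genes whose age groups did not overlap.

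*Cyfip2* had the largest difference among genes on the higher side whose groups did not overlap. It encodes a subunit of the WAVE complex, which drives branching of actin filaments. In young mice, in the order of mice 687, 688, 689, 691 and 692, it read 5.77, 4.64, 5.54, 5.31 and 5.62. In old mice, in the order of mice 107, 108, 24, 25 and 50, it read 6.30, 6.29, 6.43, 6.74 and 7.38. The old arrays began above the highest young array, with mouse 50 well above the rest and young mouse 688 well below. The difference was 1.25 (95% interval 0.80 to 1.71, 2.38-fold, adjusted p = 0.0665). This order of mice is kept for all lists of values that follow. The exact permutation test (two-sided, 5 arrays against 5) gave p = 0.00794 for *Cyfip2*, the smallest it can give, as for every gene without overlap.

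*Ostn* encodes osteocrin, also called musclin, a peptide that muscle fibers secrete. Young arrays read 6.88, 6.22, 6.32, 7.13 and 7.08 and old arrays 7.78, 8.18, 7.44, 7.35 and 8.40, a difference of 1.10 (0.65 to 1.55, adjusted p = 0.0794). The old mice 108 and 50 were highest. *Car2*, the cytosolic carbonic anhydrase that hydrates carbon dioxide, read 5.50, 5.06, 5.63, 5.65 and 5.75 in young and 5.87, 6.24, 6.38, 6.30 and 6.53 in old arrays. Its arrays were tight in both groups apart from young mouse 688, and the difference was 0.75 (0.49 to 1.01, adjusted p = 0.0665). *Nin*, which encodes the centrosome protein ninein, was 0.70 higher in old mice (0.44 to 0.96, adjusted p = 0.0665), with old arrays at 6.22, 6.17, 6.65, 6.67 and 6.80 and young arrays from 5.62 to 6.02.

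The other leading genes on this side had varied roles. A pair encodes ion transporters of excitable cells: *Scn2a*, the alpha subunit of a voltage-gated sodium channel, was 0.85 higher (0.48 to 1.23) and *Slc24a2*, a sodium, calcium and potassium exchanger, 0.76 higher (0.33 to 1.20). *Hfe*, which limits iron uptake, was 0.60 higher (0.34 to 0.86), *Gramd1b*, which moves cholesterol between membranes, 0.62 higher (0.30 to 0.94) and *S100a4*, a calcium-binding protein of motile cells, 0.62 higher (0.27 to 0.97). For *S100a4* old mouse 108 read 8.83 and the other 4 old arrays 7.81 to 8.32, against 7.27 to 7.74 in young mice. *Tsga10* was 0.69 higher (0.36 to 1.01). *Ifi202b* and *Ctsll3* were 0.70 and 0.60 higher. They and *Slc24a2* had mean signals under 4, where an array reads little RNA. *Serpina3n*, a protease inhibitor of the acute phase, had the largest difference of all genes on the higher side (1.5, 0.56 to 2.44, adjusted p = 0.37) but its groups overlapped, with young arrays at 4.62, 5.81, 6.47, 4.70 and 4.97 and old arrays at 7.27, 8.09, 7.21, 6.0 and 5.50. It was chosen after its values were seen.

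**Figure D2:**
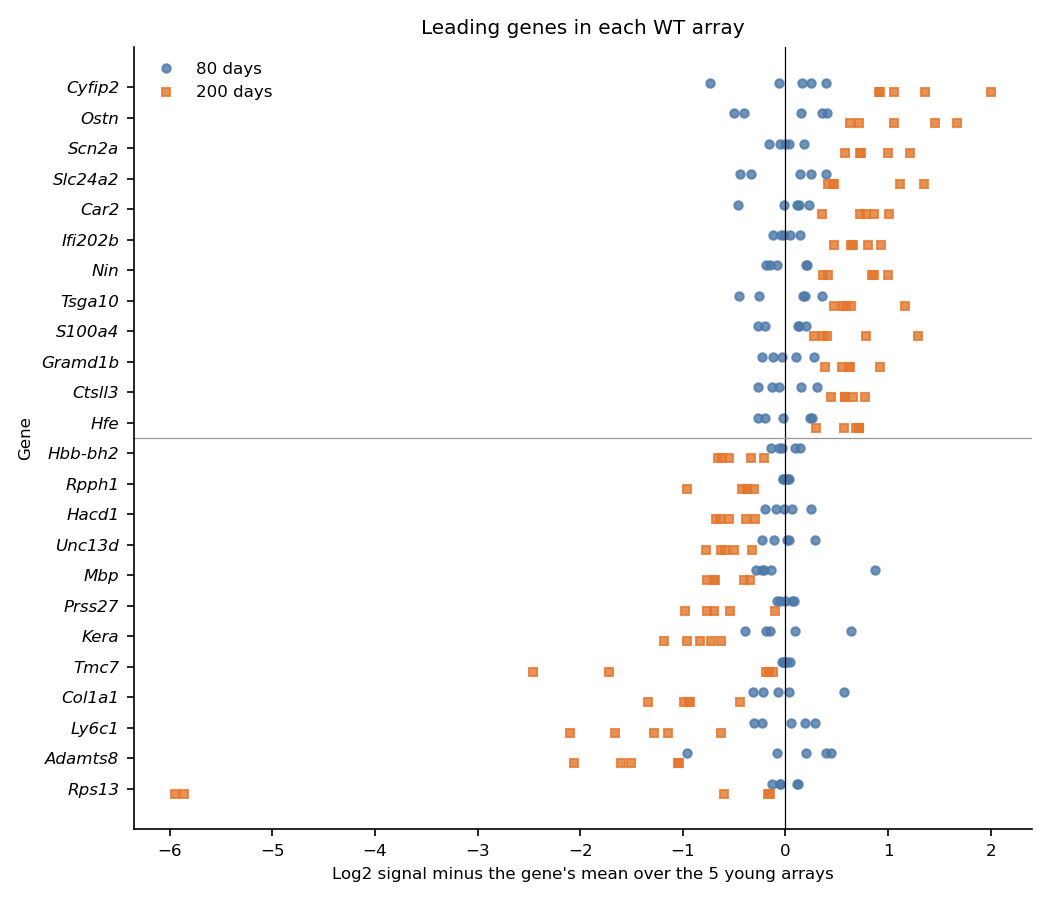
Log2 signal of the 12 highest and 12 lowest named genes without overlap in each WT array, relative to the gene's mean over the 5 young arrays (horizontal axis, each row a gene, circles 80 days and squares 200 days). Most genes shift as a group by less than 1, while the difference of *Rps13* and *Tmc7* comes from 2 old arrays and that of *Mbp* rests partly on 1 high young array.

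On the lower side, *Adamts8* stood out from the bulk of genes. It encodes a secreted metalloprotease with thrombospondin repeats. Young arrays read 6.61, 6.37, 6.56, 6.09 and 5.21 and old arrays 5.13, 5.12, 4.66, 4.11 and 4.57. Young mouse 692 lay only just above the highest old arrays, and the other young mice lay far above them. The difference was −1.45 (−1.97 to −0.93, 2.73-fold, adjusted p = 0.0665). Without mouse 692 it was −1.69 and passed the test (adjusted p = 0.0068). A second, dimmer probe set of *Adamts8* read −0.99 (adjusted p = 0.106).

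*Ly6c1* encodes a membrane-anchored protein of endothelial cells and some leukocytes. It read 5.40, 5.50, 4.98, 5.27 and 4.91 in young and 4.58, 3.11, 4.07, 3.93 and 3.55 in old mice, a difference of −1.36 (−1.86 to −0.86, 2.57-fold, adjusted p = 0.0665). The young arrays were close together and the old arrays spread over a wider range. The 12 endothelial markers did not follow it: their median difference was −0.05, 4 were higher and 8 lower, and 1, *Esam*, a junction protein, was lower at an unadjusted p under 0.05 (−0.31).

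Further genes on the lower side were *Unc13d*, a factor of granule release in leukocytes (−0.56, −0.77 to −0.36, adjusted p = 0.0665), *Prss27*, a serine protease (−0.62, −0.89 to −0.34, adjusted p = 0.117), and *Hacd1*, an enzyme that lengthens fatty acids (−0.51, −0.78 to −0.23, adjusted p = 0.286). *Rpph1*, the RNA part of the enzyme that trims transfer RNA, read 10.95 to 11.01 in young mice and 10.60, 10.55, 10.02, 10.67 and 10.60 in old mice. *Hbb-bh2*, of the beta globin family, differed by −0.48 at a mean signal under 4. Among the 323 and 118 genes without overlap, 39 (12.1%) and 52 (44.1%) had such low mean signals, where 44.8% of all genes did.

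For *Rps13* and *Tmc7* the difference came from old mice 24 and 25. *Rps13*, which encodes a protein of the small ribosomal subunit, read 9.78, 9.78, 9.95, 9.70 and 9.94 in young mice and 9.68, 9.66, 3.88, 3.97 and 9.23 in old mice. Its listed difference of −2.54 (−4.35 to −0.74, adjusted p = 0.433) therefore describes 2 of 5 old mice. A different probe set, which carries the symbols *Rps13*, *Rps13-ps4* and *Gm15483* together, read 9.05 and 9.01 in mice 24 and 25, 8.06 in mouse 50, and 4.98 to 5.98 in the 7 other WT arrays. A second probe set with the same 3 symbols was dim, at 4.59 and 4.65 in mice 24 and 25 and 3.51 to 4.20 in the other WT arrays. Reads of *Rps13* and of its near-identical pseudogenes cannot be told apart by either. *Tmc7*, a transmembrane channel-like gene, read 4.02 and 4.76 in mice 24 and 25 and 6.29 to 6.36 in the other old mice, against 6.45 to 6.52 in young mice. *Gdpd3*, a phosphodiesterase of lipids, read 7.10 and 7.32 in mice 24 and 25 and 7.33 in young mouse 691, but 3.95 to 4.73 in the other 7 arrays. *Rps13*, *Tmc7* and *Gdpd3* lie on the same chromosome in the RefSeq annotation. For these genes a difference of age and a difference between individual mice cannot be told apart. *Gdpd3* was chosen after its values were seen.

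The H222P mice offer a second set of 10 arrays at the same ages, none of them shared with the WT comparison. Of the 323 genes higher in old WT mice, 213 (65.9%) also had a difference above 0 in H222P mice, where 48.7% of all genes did, and 56 (17.3%) rose with age there at an adjusted p under 0.05, where 3.99% of all genes did. Of the 118 lower genes, 71 (60.2%) had a difference below 0 in H222P mice, where 48.7% of all genes were above 0. At an adjusted p under 0.05, 12 (10.2%) of them fell there, against 2% of all genes. The comparison with all genes is not matched for signal. A mean signal under 4 was found in 12.1% of the 323 genes, 44.1% of the 118 and 44.8% of all genes. The part of signal level in the shares of calls was not tested. Calls in the opposite direction were 5 (1.55%) and 2 (1.69%). The median difference of these genes in H222P mice was 0.10 and −0.08, smaller than the 0.31 and −0.34 in WT mice, by which they were chosen. Over all genes the correlation of the WT and H222P differences was r = 0.139, across genes that are not independent replicates.

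**Figure D3:**
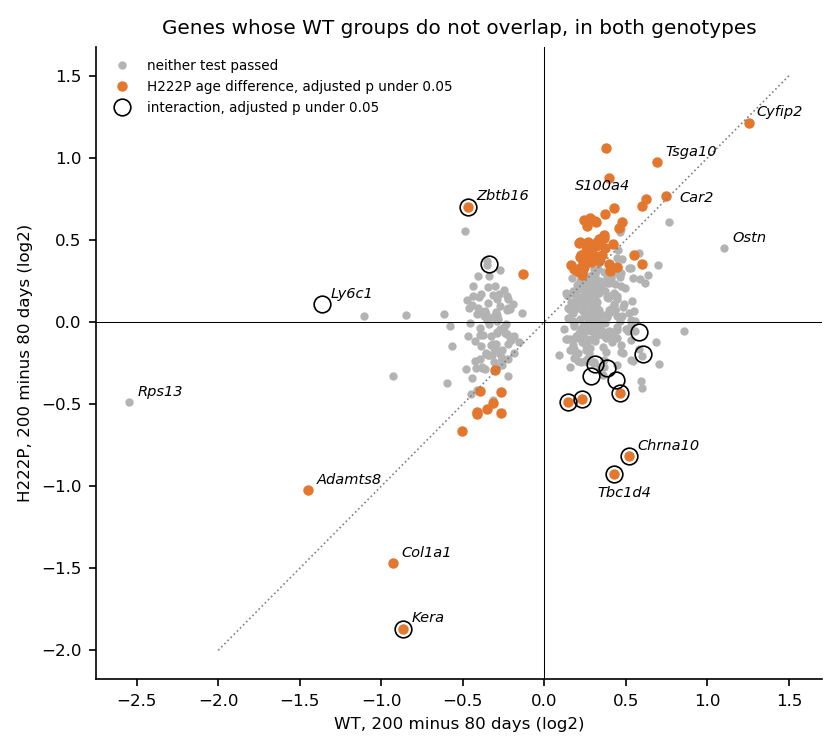
Age difference in H222P mice (vertical, log2) against that in WT mice (horizontal, log2) for the 441 genes whose WT age groups did not overlap. The dotted line marks equal differences, orange points the genes with an adjusted p under 0.05 for age in H222P mice, and circles the 15 genes whose age difference differed between genotypes at an adjusted p under 0.05.

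Of the 12 leading higher genes 5 rose with age in H222P mice, and of the 12 leading lower genes 4 fell. *Cyfip2* rose by 1.21 in H222P mice (adjusted p = 0.00187) beside 1.25 in WT mice, *Car2* by 0.77 (adjusted p = 0.000843) beside 0.75, *Hfe* by 0.70 (adjusted p = 0.00186) beside 0.60, *S100a4* by 0.75 (adjusted p = 0.0107) beside 0.62 and *Tsga10* by 0.97 (adjusted p = 0.0007) beside 0.69. The 7 other higher genes were at 0.45 (*Ostn*), −0.05 (*Scn2a*), 0.61 (*Slc24a2*), −0.25 (*Ifi202b*), 0.35 (*Nin*), 0.24 (*Gramd1b*) and −0.19 (*Ctsll3*) in H222P mice, and none passed there. On the lower side *Adamts8* was at −1.02 in H222P mice (adjusted p = 0.0174) beside −1.45 in WT mice and *Hacd1* at −0.66 (adjusted p = 0.0041) beside −0.51, while the values of *Col1a1* and *Kera* are given with the matrix genes. Outside the leading genes, *Hey1*, a Notch target, was at −0.42 (adjusted p = 0.0124) beside −0.40 in WT mice, and *Sparc*, a collagen-binding glycoprotein, at −0.55 (adjusted p = 0.00337) beside −0.41. The interaction of age and genotype did not pass for *Cyfip2*, *Car2*, *Hfe*, *S100a4*, *Tsga10*, *Adamts8*, *Hacd1*, *Hey1* or *Sparc*, which does not show that their differences were equal. These genes are set side by side because they passed the test in H222P mice.

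Other genes differed between genotypes in their change with age. The interaction passed at an adjusted p under 0.05 in 259 probe sets (0.721%) and 194 genes (0.875%), and in 15 of the 441 without overlap in WT mice, 11 higher and 4 lower there. *Chrna10*, a subunit of nicotinic acetylcholine receptors, was 0.52 higher in old WT mice and fell by 0.82 with age in H222P mice (interaction adjusted p = 0.00133). *Tbc1d4*, which holds the glucose transporter inside the cell until insulin acts, was 0.42 higher in old WT mice and fell by 0.92 in H222P mice (0.00626). *Kcnj2*, the inward rectifier potassium channel of muscle, was 0.23 higher in old WT mice, with young arrays at 7.14 to 7.19 and old arrays at 7.29 to 7.50, and fell by 0.47 in H222P mice (0.0158). *Ly6c1* was at 0.11 in H222P mice (0.0446). *Kera*, described next, differed in the same direction in both genotypes, by more in H222P mice (0.048).

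Genes of the collagen matrix leaned to the lower side. Of 20 measured genes of fibrillar collagens and their assembly, 15 were lower in old mice (54.4% of all genes were higher), 4 of them at an unadjusted p under 0.05 (2.89% of all genes), and 1 was higher at that level (5.46% of all genes). None passed the adjusted test, and the median difference was −0.13 against 0.02 over all genes. *Col1a1*, the first chain of type I collagen, read 8.26, 7.47, 7.62, 7.73 and 7.38 in young and 6.35, 7.25, 6.76, 6.70 and 6.75 in old mice. All old arrays lay below all young arrays, with mouse 108 closest to them, and the difference was −0.93 (−1.36 to −0.50, adjusted p = 0.141). Its partner *Col1a2* differed by −0.77 (−1.21 to −0.33, adjusted p = 0.317), with old mouse 108 at 9.88 and the other 4 old arrays at 8.68 to 9.22, against 9.49 to 10.49 in young mice. *Col11a1*, a chain of the minor collagen that starts fibrils, differed by −0.53 (adjusted p = 0.236) and *Sparc* by −0.41 (adjusted p = 0.286). *Thbs1*, the matrix protein thrombospondin 1, was the exception at 0.51 higher (adjusted p = 0.447). The median of the list was −0.19 without mouse 108 and −0.08 without old mouse 107.

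Genes of the basement membrane, the sheet around each fiber, leaned the same way. Of 20 basement membrane genes 17 were lower and 3 higher, with a median of −0.12. *Col6a1* and *Col6a2*, chains of type VI collagen that anchors the fiber, differed by −0.47 (adjusted p = 0.42) and −0.45 (adjusted p = 0.37). For *Col6a2* old arrays read 5.69, 6.05, 5.42, 5.85 and 6.13 and young arrays 6.16 to 6.46, so that they touched but did not overlap. In H222P mice *Col1a1* fell by 1.47 with age (adjusted p = 0.00021), *Col1a2* by 1.11 (adjusted p = 0.00316), *Col11a1* by 0.71 (adjusted p = 0.00246) and *Col6a1* by 0.70 (adjusted p = 0.00902), and the median of the 20 collagen genes there was −0.29. Tendon markers moved with them there, with a median of −0.70, 8 of 12 lower at an adjusted p under 0.05 (2% of all genes) and none higher, and *Col11a1* is on both lists. The part of tendon tissue in the H222P values was not tested.

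*Kera* encodes keratocan, a small leucine-rich proteoglycan that spaces collagen fibrils in tendon and cornea. It read 8.08, 7.54, 7.05, 7.26 and 7.30 in young and 6.82, 6.61, 6.72, 6.26 and 6.49 in old mice, a difference of −0.87 (−1.21 to −0.52, adjusted p = 0.0794). In H222P mice it fell by 1.87 (adjusted p = 1.8e-06). It went against its own family: 9 of the 12 small leucine-rich proteoglycans were higher in old mice, with a median of 0.17, and *Lum*, lumican, was 0.37 higher (adjusted p = 0.532). *Kera* is also on the list of 12 tendon markers, of which 8 were lower, with a median of −0.12. Young mouse 687 had the highest mean of the tendon markers, 7.07, where the other 9 arrays read 6.24 to 6.49. Without mouse 687 the median of the tendon markers was 0.02 and *Kera* differed by −0.71, and the part of tendon tissue in its value was not tested.

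The stretches just before the start of these matrix genes are shown for *Kera*, *Col1a2* and *Col11a1*, which were lower in old mice and whose windows held the motif described next. *Sparc* had a window without it, and *Col1a1* is named only. Of the 20 collagen genes 13 had a window in the RefSeq table of promoters (GRCm38.p6), and of the 24 leading genes 16. Capitals mark CCAAT, the box that the factor NF-Y can bind, or its reverse complement ATTGG, searched on both strands in the 120 bases before the start.
Kera, chr10:97607085-97607204, plus strand: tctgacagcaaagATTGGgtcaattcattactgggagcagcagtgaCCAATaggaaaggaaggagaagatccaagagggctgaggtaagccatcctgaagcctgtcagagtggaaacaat
Col1a2, chr6:4505498-4505617, plus strand: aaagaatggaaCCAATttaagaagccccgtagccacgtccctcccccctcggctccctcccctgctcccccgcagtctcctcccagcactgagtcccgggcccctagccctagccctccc
Col11a1, chr3:114030420-114030539, plus strand: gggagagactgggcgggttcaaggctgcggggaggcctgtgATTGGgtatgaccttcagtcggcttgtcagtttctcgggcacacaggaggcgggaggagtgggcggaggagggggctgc
The box began 107 and 74 bases before the start of *Kera*, 109 before that of *Col1a2* and 79 before that of *Col11a1*. It was found in 3 of the 13 collagen windows, in 2 of the 7 windows of leading lower genes and in 21.3% of all 32851 windows of this length. These matches are a description only.

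Fibroblast markers lay on the other side from the collagens. Of 12 markers 10 were higher in old mice, 4 at an unadjusted p under 0.05 (5.46% of all genes), with a median of 0.19. *Dpt*, dermatopontin, a matrix protein of fibroblasts, read 8.53, 8.22, 8.48, 7.85 and 8.30 in young and 9.38, 8.86, 8.58, 8.64 and 8.90 in old mice (0.60, 0.25 to 0.95, adjusted p = 0.323). *Dpp4*, a peptidase on fibroblasts of the muscle sheaths, was 0.64 higher (0.33 to 0.95, adjusted p = 0.2), and *Cd248*, endosialin, 0.37 higher (adjusted p = 0.57). The mean of the list was highest in old mouse 108, at 7.21, and ran from 6.74 to 7.01 in the other old arrays and from 6.57 to 6.95 in young arrays, so the groups overlapped. Without mouse 108 the median of the list was 0.06. *Pdgfrb*, the receptor that marks pericytes, was lower by itself (−0.41, adjusted p = 0.47), while the 11 markers of pericytes and smooth muscle had a median of 0.00.

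**Figure D4:**
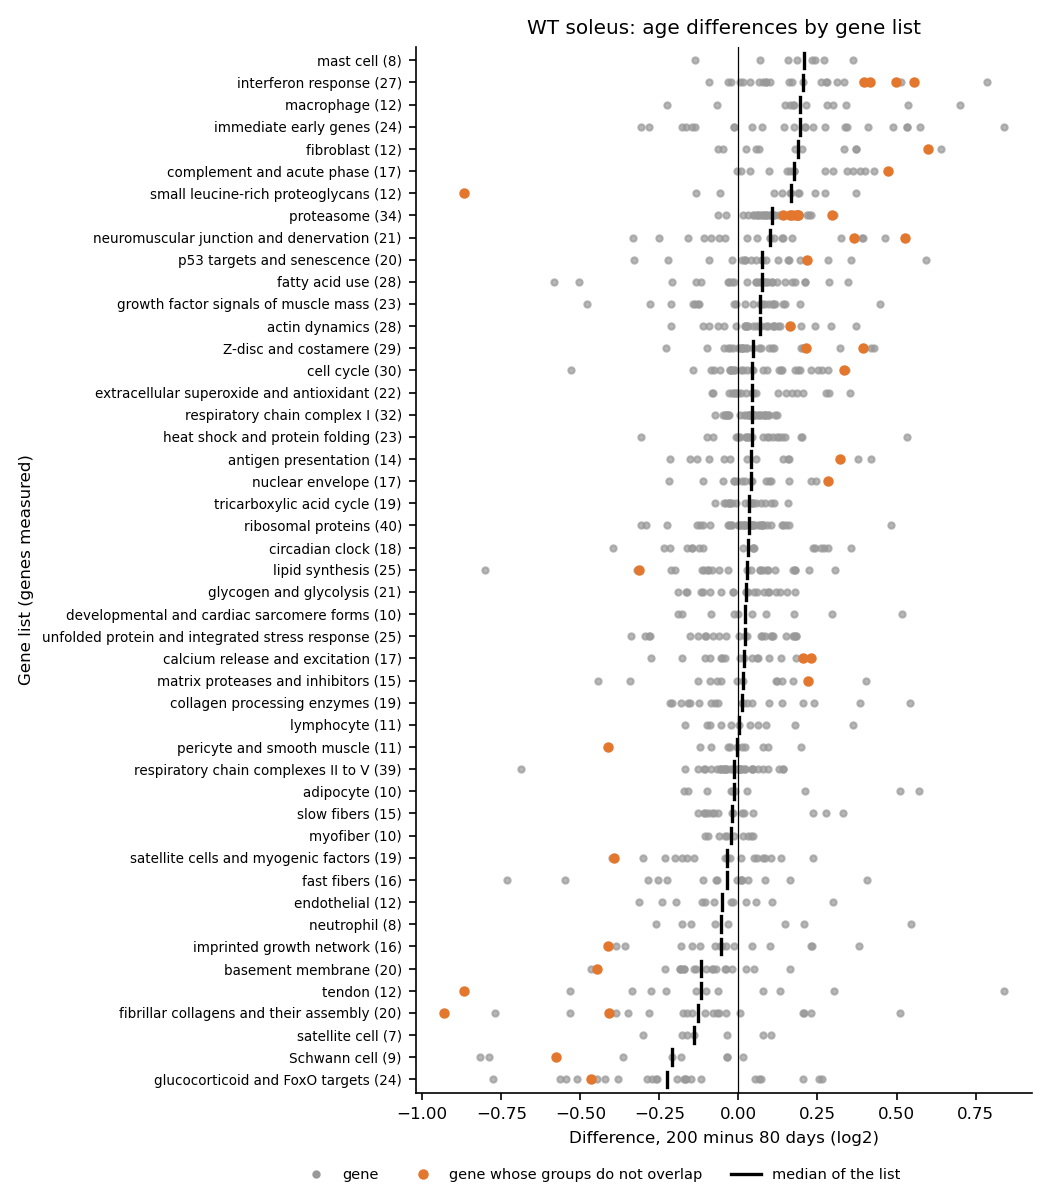
Age difference of every measured member (points, log2) in each gene list with at least 7 members in WT soleus, ordered by the median of the list (black bar). Medians ran from −0.23 for glucocorticoid and FoxO targets to 0.21 for mast cell markers, and orange points are members whose age groups did not overlap.

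Proteasome genes were slightly but evenly higher in old mice. The proteasome is the barrel of protease subunits, with a cap that unfolds its substrates, that degrades ubiquitin-tagged proteins. Of 34 measured subunits 32 were higher (94.1%, against 54.4% of all genes). At an unadjusted p under 0.05, 5 were higher (5.46% of all genes), and 7 were higher without overlap (1.46% of all genes). None passed the adjusted test. The median difference was 0.10, and the interval lay within 1.5-fold for 33 of the 34. The mean signal of the list read 8.23, 8.27, 8.27, 8.23 and 8.26 in young and 8.34, 8.38, 8.39, 8.37 and 8.38 in old mice, so the age groups did not overlap.

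The 7 subunits of this list without overlap came from the outer ring of the barrel and from the cap. No listed subunit of the inner ring, which holds the protease sites, was among them. *Psmb9*, an inner-ring subunit of the immunoproteasome, was counted with the interferon genes instead, and was 0.42 higher without overlap. *Psma6* belongs to the outer ring of the barrel and was 0.19 higher (adjusted p = 0.485). *Psmc2*, *Psmc3* and *Psmc4* are ATPases of the base of the cap and were 0.17, 0.18 and 0.19 higher. *Psmd1*, *Psmd7* and *Psmd14* belong to the cap and were 0.14, 0.16 and 0.29 higher. *Psmd14*, which removes ubiquitin, read 6.96, 6.72, 6.94, 6.70 and 6.99 in young and 7.02, 7.30, 7.31, 7.15 and 7.01 in old mice (0.08 to 0.51, adjusted p = 0.454). *Psmd11* and *Psmd13* were 0.22 and 0.23 higher. In H222P mice 12 subunits rose with age at an adjusted p under 0.05 (3.99% of all genes) and none fell, among them *Psmd14* (0.46), *Psmd11* (0.39), *Psmd7* (0.34) and *Psmc3* (0.32), with a median of 0.23, and the interaction passed for 0 of the 34 subunits. The median of the list in WT mice was 0.13 after re-centring and 0.08 after quantile normalization.

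Genes that glucocorticoids and FoxO factors switch on in fasting or atrophy had the lowest median of all lists. Of 24 measured genes 18 were lower in old mice, 5 at an unadjusted p under 0.05 (2.89% of all genes), and 2 were higher at that level (5.46% of all genes), with a median of −0.23. The 2 higher genes were *Fbxo30* (0.27) and *Ctsl* (0.26). Also above 0 were *Gabarapl1* (0.20), *Fbxo21* (0.07), *Bnip3* (0.07) and *Fbxo32* (0.05), and *Trim63* differed by only −0.17 (adjusted p = 0.813). These genes were chosen after their values were seen. The fall was therefore not shared by the whole list. *Zbtb16*, a zinc-finger factor that glucocorticoids induce, read 8.21, 8.36, 8.14, 8.28 and 8.18 in young and 8.14, 7.61, 7.60, 7.93 and 7.56 in old mice (−0.47, −0.80 to −0.14, adjusted p = 0.433). Old mouse 107 equalled the lowest young mouse to the printed digits, and the other 4 lay clearly below. *Foxo1*, the factor itself, differed by −0.57 (−0.88 to −0.25, adjusted p = 0.317), *Mt2*, a metallothionein, by −0.78 (−1.28 to −0.27, adjusted p = 0.401) and *Sgk1*, a kinase induced by corticosteroids, by −0.51 (adjusted p = 0.486). *Gadd45g* differed by −0.55 (−1.27 to 0.18) with mouse 107 at 7.48 and the other 4 old arrays at 5.25 to 6.16. The mean of the list was 7.21 in mouse 107, above all young arrays (6.97 to 7.19), and 6.68 to 6.99 in the other 4 old arrays.

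In H222P mice the same list went the other way. Its median there was 0.29, 11 of the 24 genes rose with age (3.99% of all genes) and none fell (2%) at an adjusted p under 0.05. The interaction passed for 6 members (0.875% of all genes), among them *Mt2* (1.78 in H222P mice, interaction adjusted p = 0.00101), *Foxo1* (0.59, 0.0157) and *Zbtb16* (0.70, 0.0183). The hour of harvest is not given in the sources used here. Among 18 genes of the circadian clock, which also follow the hour, the median difference in WT mice was 0.03. At an unadjusted p under 0.05, 2 were higher (5.46% of all genes). The members went both ways, 10 higher and 8 lower, from −0.40 to 0.35. A median over genes that move in opposite directions cannot show a difference in hour, and an effect of the hour was not tested.

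**Figure D5:**
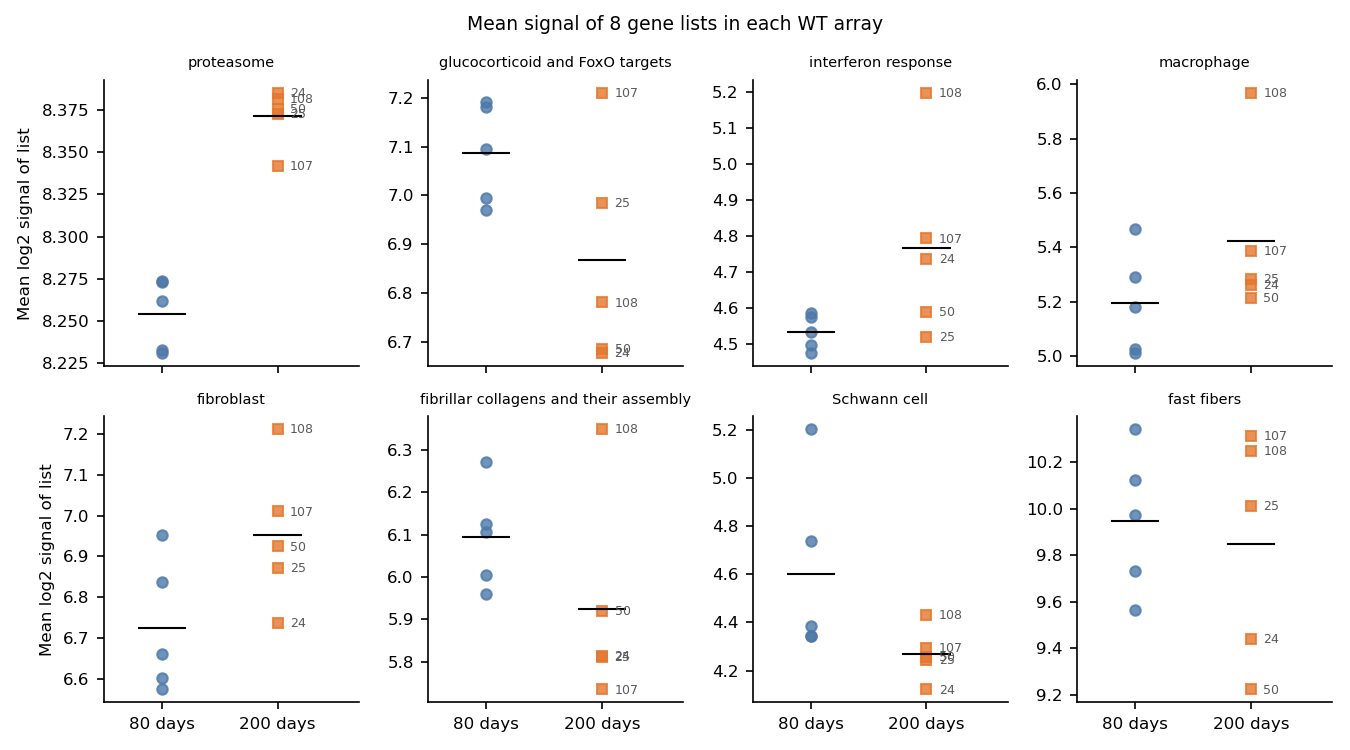
Mean log2 signal of 8 gene lists (vertical axis, own scale in each panel) in each WT array at 80 days (circles) and 200 days (squares, labelled by mouse number), with the group mean as a bar. Groups are apart for the proteasome, while mouse 108 is highest for interferon, macrophage, fibroblast and collagen genes, and fast fiber genes spread widely at both ages.

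Genes of the interferon response were higher in most old mice. Interferons call up a fixed set of antiviral and antigen-processing genes. Of 27 measured genes 24 were higher (88.9%, against 54.4% of all genes), 4 at an unadjusted p under 0.05 (5.46% of all genes) and 4 without overlap (1.46%), with a median of 0.20. *Oasl2*, related to the enzymes that sense viral RNA, read 3.43, 3.98, 3.72, 3.39 and 3.55 in young and 4.67, 5.20, 4.34, 3.62 and 4.16 in old mice (0.78, 0.11 to 1.46, adjusted p = 0.535). Mouse 25 stayed within the young range. *Rtp4* was 0.55 higher (adjusted p = 0.538), *Igtp*, a GTPase that acts on microbial vacuoles, 0.50 (adjusted p = 0.519), *Psmb9*, a catalytic subunit of the immunoproteasome, 0.42 (adjusted p = 0.466) and *Mx2*, a GTPase against viruses, 0.40 (adjusted p = 0.734), each without overlap. The mean of the list read 4.79, 5.20, 4.74, 4.52 and 4.59 in old arrays against 4.47 to 4.59 in young arrays. Mouse 108 was highest, and the median without it was 0.10. In H222P mice the median was −0.01 with 0 of 27 members called, and no interaction passed, so a difference between the genotypes was not shown.

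Complement and macrophage genes had medians of the same sign, and *C1qa*, *C1qb* and *C1qc* are on both lists. Of 17 complement and acute phase genes 16 were higher, 3 at an unadjusted p under 0.05 (5.46% of all genes), with a median of 0.18. *Cfb*, factor B of the alternative pathway, was 0.47 higher (0.15 to 0.80, adjusted p = 0.419) without overlap, and *Cfp*, properdin, which steadies that pathway, 0.40 higher (0.16 to 0.64, adjusted p = 0.335). *Cfb* rose by 0.61 in H222P mice (adjusted p = 0.0242). *B2m*, the shared chain of class I antigen molecules, read 10.28 to 10.46 in young and 11.00, 10.82, 10.72, 10.48 and 10.47 in old mice (0.32, 0.09 to 0.55, adjusted p = 0.443). It belongs to a separate list of 14 antigen presentation genes, with a median of 0.04. Of these 8 were higher (57.1%, against 54.4% of all genes) and 6 lower. Of 12 macrophage markers 10 were higher with a median of 0.19. *Cd68*, a lysosomal protein of macrophages, was 0.70 higher (0.18 to 1.22, adjusted p = 0.454), with mouse 108 at 7.45 and the other old arrays at 5.92 to 6.54 against 5.23 to 6.08 in young mice. *Mrc1*, the mannose receptor of resident macrophages, was 0.54 higher (0.16 to 0.91, adjusted p = 0.422). The macrophage mean was 5.97 in mouse 108, and 5.21 to 5.39 in the other old arrays lay within the young range of 5.01 to 5.47. Without mouse 108 the median of the macrophage list was 0.08. Mast cell markers had a median of 0.21 (7 of 8 higher), but only *Cpa3*, a protease of their granules (0.36, adjusted p = 0.599), and 1 other marker had a mean signal of 4 or more.

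Markers of Schwann cells, which wrap motor axons in myelin, had a median of −0.21, and 8 of 9 were lower in old mice. *Mbp*, myelin basic protein, read 5.0, 5.09, 5.02, 6.10 and 4.94 in young and 4.54, 4.88, 4.53, 4.47 and 4.83 in old mice. The groups did not overlap, but young mouse 691 stood far above the rest, and the difference of −0.58 (−1.25 to 0.09, adjusted p = 0.685) became −0.36 without it. *Pmp22*, a protein of compact myelin that other cells make too, differed by −0.82 (−1.58 to −0.05, adjusted p = 0.579) and *Mal*, a raft protein of myelin, by −0.79 (−1.47 to −0.11, adjusted p = 0.535). Young mice 688 and 691 were highest in both. The mean of the list read 4.38, 4.74, 4.34, 5.20 and 4.34 in young and 4.29, 4.43, 4.12, 4.25 and 4.26 in old mice. Without mouse 691 the median of the list was −0.09.

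Genes of the neuromuscular junction and of denervation had a median of 0.10, with 14 of 21 higher (66.7%, against 54.4% of all genes), 5 at an unadjusted p under 0.05 (5.46% of all genes) and 1 lower at that level (2.89%). *Dach2*, a transcriptional repressor, read 4.75, 4.26, 4.45, 4.76 and 4.66 in young and 5.18, 4.96, 5.03, 5.22 and 5.13 in old mice (0.53, 0.30 to 0.76, adjusted p = 0.106). The old arrays lay close together above all young arrays. *Hdac9*, a deacetylase, was 0.37 higher without overlap (0.13 to 0.61, adjusted p = 0.406). *Chrna1*, the alpha subunit of the muscle acetylcholine receptor, was 0.39 higher (adjusted p = 0.451) and *Ncam1*, an adhesion molecule of denervated fibers, 0.39 (adjusted p = 0.524). The gene lower at an unadjusted p under 0.05 was *Dok7*, at −0.33 (adjusted p = 0.446). *Myog*, *Runx1* and *Sln* were at −0.04, −0.06 and −0.11, and *Musk* and *Chrng* at 0.06 and 0.10. These were named after their values were seen. Whether the genes of the list share a response to denervation was not tested. For *Chrna1* and *Ncam1* mice 108 and 50 were highest (7.92 and 8.08, and 6.33 and 6.30) and the other old arrays were in or near the young range. *Ncam1* rose by 1.18 in H222P mice (adjusted p = 0.000139), while *Dach2* was at −0.11 and *Hdac9* at −0.23 there.

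A pair of noncoding RNAs of an imprinted region were lower in both genotypes. *Meg3* and *Rian* are made from the maternal copy of the region between *Dlk1* and *Dio3*, which also holds a large cluster of microRNAs. *Meg3* read 6.31, 6.32, 6.17, 6.13 and 5.93 in young and 5.58, 6.11, 5.75, 5.75 and 5.72 in old mice (−0.39, −0.60 to −0.18, adjusted p = 0.286). *Rian* read 4.93 to 5.17 in young and 4.89, 4.74, 4.39, 4.78 and 4.28 in old mice (−0.41, −0.67 to −0.15, adjusted p = 0.375). In H222P mice *Meg3* fell by 0.42 (adjusted p = 0.0186), and *Rian* was at −0.41 (adjusted p = 0.0613). Of the 55 genes measured from *Dlk1* to *Dio3* in the order of RefSeq, 36 were lower in old WT mice with a median of −0.04. Of the 13 with a mean signal of at least 4, 11 were lower with a median of −0.15. This region was chosen after the values of *Meg3* and *Rian* were seen, and both counts include them. Of all genes 54.4% were higher in old mice.

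MicroRNA genes as a class showed little. The array reads the precursor or the surrounding transcript, not the mature strand. Of 472 microRNA genes 346 had a mean signal under 4, and the median difference was −0.02. Without overlap 1 was higher (1.46% of all genes) and 2 were lower (0.532% of all genes), *Mir188* and *Mir668*. *Mir188* read 4.11, 3.48, 4.08, 3.54 and 4.46 in young and 2.70, 2.42, 2.48, 3.22 and 3.32 in old mice (−1.10, −1.55 to −0.66, adjusted p = 0.0794). Its interval was clear of 0, at a signal near the bottom of the scale. *Mir668*, of the same imprinted cluster, differed by −0.27 (−0.52 to −0.02, adjusted p = 0.57). Both were chosen after their values were seen. Their mature strands in RefSeq (GRCm38.p6) are shown to identify them, with the seed, bases 2 to 8, in capitals. No strand shares its seed with another of the 4.
mmu-miR-188-5p, chrX:7248031-7248051, minus strand: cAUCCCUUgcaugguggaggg
mmu-miR-188-3p, chrX:7247992-7248012, minus strand: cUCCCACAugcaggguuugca
mmu-miR-668-5p, chr12:109734733-109734756, plus strand: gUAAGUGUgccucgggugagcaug
mmu-miR-668-3p, chr12:109734774-109734797, plus strand: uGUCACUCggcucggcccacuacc

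The contractile and metabolic genes that set the type of a muscle differed little with age. The median was −0.02 over 15 slow fiber genes, with 0 at an unadjusted p under 0.05. *Myh7*, the slow myosin heavy chain, read 10.95 ± 0.08 in young and 10.84 ± 0.19 in old mice (−0.11, −0.45 to 0.24, adjusted p = 0.916). The interval of the difference lay within 1.5-fold for all 32 genes of respiratory chain complex I (median 0.04), for 38 of 39 of complexes II to V (−0.01) and for all 19 of the tricarboxylic acid cycle (0.03). The exception was *Atp5g1*, a subunit of ATP synthase, at −0.69 (adjusted p = 0.454), read by a dim probe set with a mean signal of 3.79. Fatty acid use (28 genes, median 0.07) and glycogen and glycolysis (21 genes, 0.02) had no member at an unadjusted p under 0.05, and within 1.5-fold lay 21 and 20 of them. In H222P mice 8 of the 19 genes of the tricarboxylic acid cycle fell with age (median −0.33), where 2% of all genes did. *Lmna* itself read 6.48 ± 0.08 in young and 6.65 ± 0.26 in old WT mice (0.16, −0.08 to 0.41, adjusted p = 0.766), and *Cfl1*, cofilin-1, which severs actin filaments, 7.15 ± 0.18 and 7.04 ± 0.10 (−0.11, −0.34 to 0.12, adjusted p = 0.843).

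A few fast fiber genes varied widely between mice of the same age, while for 11 of the 16 on the list the interval of the age difference lay within 1.5-fold. *Myh4*, the fastest myosin heavy chain, read 5.91, 11.21, 9.87, 6.54 and 9.85 in young and 11.34, 10.98, 6.83, 10.42 and 5.86 in old mice. Low and high mice occurred at both ages, so the interval of the difference ran from −1.97 to 2.78, and its sign turned when any of 4 mice was left out. *Actn3*, the fast isoform of alpha-actinin, was lowest in mice 24 and 50 (6.68 and 6.37, against 8.06 to 10.30 in the other 8), as was *Pvalb*, the calcium buffer parvalbumin (7.72 and 7.10, against 8.47 to 9.55). The mean over 16 fast fiber genes ran from 9.56 to 10.34 in young and from 9.22 to 10.31 in old mice, with a median difference of −0.04. A range of 2 or more among the arrays of an age was found in 48 genes, 15 at 80 days and 39 at 200 days. Another such gene was *Fasn*, fatty acid synthase, at 8.64, 7.04, 4.76, 5.18 and 6.39 in old mice. Adipocyte markers had their highest mean in mouse 107, 6.60, with the other 9 arrays at 5.42 to 6.25.

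Among other muscle genes a few at the Z-disc, where thin filaments are anchored and stretch is sensed, were higher in old mice. Of 29 genes of the Z-disc and costamere 22 were higher, 5 at an unadjusted p under 0.05 (5.46% of all genes) and 1 lower at that level (2.89%), with a median of 0.05. *Ankrd2*, an ankyrin repeat protein of slow fibers, read 10.47, 10.42, 10.36, 10.32 and 10.21 in young and 10.81, 10.51, 10.88, 10.73 and 10.83 in old mice (0.39, 0.18 to 0.61, adjusted p = 0.286). *Csrp3*, muscle LIM protein, was 0.42 higher (0.15 to 0.69, adjusted p = 0.401) with mice 24 and 25 at 11.46 and 11.22, and *Xirp2*, an actin-binding protein, 0.21 higher without overlap. *Ankrd1*, the stretch-induced relative of *Ankrd2*, was at 0.43 (−0.29 to 1.15) in WT mice and rose by 3.16 in H222P mice (interaction adjusted p = 0.0113). Of 10 developmental and cardiac sarcomere genes (median 0.02) *Myh3*, embryonic myosin, was 0.52 higher at an unadjusted p under 0.05 (0.09 to 0.94, adjusted p = 0.52) and rose by 1.72 in H222P mice, where the median was 0.91. In the list of calcium release and excitation (median 0.02) *Stac3*, which couples the calcium channels, was 0.20 higher without overlap, as was *Kcnj2*.

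Signals of growth and of myogenic cells showed single genes rather than shifts of a list. Of 23 growth factor genes of muscle mass (median 0.07) *Gdf11*, a ligand close to myostatin, was 0.45 higher (adjusted p = 0.454) and rose by 1.49 in H222P mice (interaction adjusted p = 0.0317), while *Igfbp5*, which binds insulin-like growth factors, differed by −0.48 (adjusted p = 0.418). Of 19 genes of satellite cells and myogenic factors (median −0.04) *Myod1*, the master factor of myogenesis, differed by −0.40 (adjusted p = 0.413) and *Hey1* by −0.40 (adjusted p = 0.225). *Hey1* read 6.28 to 6.35 in young and 5.75, 5.67, 6.06, 6.10 and 6.0 in old mice. In the list of p53 targets and senescence 16 of 20 were higher, with a median of 0.07 that ran from 0.01 to 0.14 with an array left out. In this list *Mdm2*, the ligase that degrades p53, was 0.22 higher without overlap, and *Eda2r*, a receptor of the tumor necrosis factor family, 0.36 (adjusted p = 0.454). They rose by 0.49 (adjusted p = 0.0038) and 0.61 (adjusted p = 0.00596) in H222P mice. *Pcna*, the sliding clamp of DNA synthesis, was 0.33 higher without overlap among 30 cell cycle genes with a median of 0.04.

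Actin regulators leaned to the higher side by small amounts, and the nuclear envelope was near the background as a list. Of 28 genes of actin dynamics 22 were higher (78.6%, against 54.4% of all genes), with a median of 0.07 against 0.02 over all genes. At an unadjusted p under 0.05, 3 were higher (5.46% of all genes) and 1 lower (2.89%). The interval lay within 1.5-fold for all 28. *Diaph1*, a formin that extends actin filaments, was 0.37 higher (0.16 to 0.58, adjusted p = 0.317), *Actg1*, cytoplasmic gamma-actin, 0.29 (adjusted p = 0.409) and *Limk2*, a kinase that switches cofilin off, 0.16 without overlap. Of 17 nuclear envelope genes (median 0.04) *Syne1*, nesprin-1, which ties the nucleus to the cytoskeleton, was 0.28 higher without overlap (0.07 to 0.50, adjusted p = 0.458). Immediate early genes, which answer within minutes to handling or activity, had a median of 0.19 over 24 genes (0.09 to 0.26 with an array left out). *Egr1* was 0.84 higher (0.09 to 1.59, adjusted p = 0.549) and *Junb* 0.57 (adjusted p = 0.532), with mouse 25 highest in *Junb* at 7.91 and mouse 50 highest in *Egr1* at 7.08.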

How the data were processed

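RNA of whole soleus was labelled with the GeneChip WT Pico Reagent Kit and hybridized to GeneChip Mouse Gene 2.0 ST arrays. The sources differ on the extraction. It is given here as Trizol, while the paper's methods name the RNeasy kit, in their section on reverse-transcription qPCR. The authors deposited normalized log2 signals of 35916 probe sets, and the submitters' processing notes name Partek without a version. No genome build is given in the sources used here. Of the probe sets 23521 carried 1 symbol, 1820 several and 10575 none.

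The 4 groups of 5 arrays were fitted together in limma (version 3.58.1, R 4.3.3) with moderated variances and Benjamini-Hochberg adjustment across probe sets. The smallest p of the exact permutation test (252 divisions) was 0.00794. The script was tested on simulated data. Genes named were the 12 highest and 12 lowest without overlap between ages, leaving out gene models without a product name, and up to 4 members of each of 49 lists. Other genes are said to be chosen after their values were seen, or differed in few members of a list. Members and lists were chosen with earlier results of these data known. Alternatives were other scalings, array weights, other variance models, a filter on dim probe sets, other probe sets per gene, and each array left out. The number of arrays limits the precision.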

Additional observations from a re-analysis of the deposited data

Results flagged for a closer look

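In 19 of 248 groups of 5 arrays looked at, 1 array stood apart from the other 4, where chance gives about 1 in 20 (12.4). The ratio is the gap to the nearest array over the range of the group, with a critical value of 0.71. Old mouse 108 was highest for *Lum* (0.847), *Ankrd1* (0.801), *Col6a1* (0.756), *Cd248* (0.743), the macrophage markers (0.77) and the first principal component (0.922). Old mouse 107 was highest for the adipocyte markers (0.891) and lowest for the proteasome (0.713). Old mouse 50 was highest for *Tsga10* (0.769) and for the junction and denervation genes (0.712). Old mouse 24 was highest for *Psmd1* (0.834) and lowest for *Rpph1* (0.822). Young mouse 691 was highest for *Mbp* (0.873) and *Gdpd3* (0.769), and young mouse 689 for *Cpa3* (0.745). Young mice 692, 687 and 688 were lowest for *Limk2* (0.858), *Psmd7* (0.777) and *Cfl1* (0.772), and mouse 687 also for the median signal of the array (0.741).

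The age difference differed between genotypes, by the limma interaction term with adjusted p under 0.05, for 11 of the genes whose values are described above. *Trim13*, which was only named, passed as well (H222P minus WT difference −0.64, interaction adjusted p = 0.0418). The H222P difference exceeded the WT difference by 2.73 for *Ankrd1*, 2.56 for *Mt2*, 1.47 for *Ly6c1*, 1.17 for *Zbtb16*, 1.16 for *Foxo1* and 1.04 for *Gdf11* on the log2 scale. It lay below the WT difference, at −1.35 for *Tbc1d4*, −1.34 for *Chrna10*, −1.0 for *Kera*, −0.80 for *Ctsll3* and −0.70 for *Kcnj2*.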

How the results depend on the processing

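No paired analysis was possible because the mouse numbers differ between the age groups. The count of 0 probe sets at an adjusted p under 0.05 became 9 with array weights, 1 with a variance trend and robust moderation, 1 after re-centring, 15 with a mean signal of at least 4 and 15 with adjustment over genes only. It stayed 0 in the WT arrays alone and after quantile normalization, and ran from 0 to 10 when each array was left out. The exact permutation test could give no call after adjustment, since its smallest p was too large (lowest adjusted p 0.433). With a 2-fold difference as well, it was 3 with array weights, 3 with the brighter probe sets, 5 over genes only, and 0 to 4 with an array left out.

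Genes lower without overlap numbered 76 after re-centring and 66 among the brighter ones, and 196 to 273 with an array left out, when fewer arrays must be apart. Those higher without overlap were then 426 to 553. Genes lower at an unadjusted p under 0.05 were 328 among the brighter ones. Those lower by 1.5-fold ranged from 32 to 67 with an array left out, and the 259 probe sets with an interaction became 162 to 235. The proteasome median was 0.13 after re-centring and 0.0797 after quantile normalization, and the lymphocyte median 0.13 among the brighter genes. With an array left out, the median ranged from −0.0132 to 0.0646 for growth factors and from −0.0322 to 0.079 for developmental sarcomere genes. *Myh4* turned sign, to −0.16 without mouse 107, −0.07 without 108, −0.28 without 687 and −0.13 without 691, within a range of −0.284 to 1.2127. The cause of these shifts was not tested, apart from the number of arrays or probe sets where it is fewer. Of 1863 values for 104 genes, 1819 kept their direction and side of the threshold and 40 passed it, and 875 of 881 list medians moved by less than the spread between arrays. Dim probe sets, 9946 of the genes, limit what can be read.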
